A study of Homo sapiens with 9 samples.

Results

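The genes described here are 10 cyclins and cyclin-dependent kinases (CDKs) of the core cell cycle machinery, CCND1, CCND2, CCND3, CCNE1, CCNE2, CCNA2, CCNB1, CDK1, CDK2 and CDK4. They were chosen by name, by matching the Ensembl identifier without its version to the gene symbol, and all 10 were found among the 19869 genes of the table for the K94/171R line. Of the 10, 9 had an FPKM (fragments mapped to a gene, scaled to transcript length and to the size of the library) of at least 1 in at least 1 library, and CCND2 did not. Because of this scaling, levels can be set side by side between genes.

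The study compared the transcriptional response of NCI-H460 cells, a human large cell lung cancer line with an activated K-RAS and inactivated RUNX3, to serum and to switched-on RUNX3 proteins around the restriction point. The values here come from its K94/171R line, a stable transfectant that carries RUNX3 with lysines 94 and 171 replaced by arginine, fused to ERT2, an estrogen receptor domain that responds to 4-hydroxytamoxifen (4-OHT). After 24 h without serum, cells were collected at 0 h (labelled control), or after 8 or 16 h in 10% serum with 1 µM 4-OHT (labelled TAM), with 1 mRNA library per time. The other 6 libraries of the series, from the wild-type RUNX3 line and its control line, are in a table whose gene identifiers it does not pair with symbols, and were not used here.

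All 3 libraries thus share the line, the inserted mutant and the starvation. The 0 h library differs from the others in time, serum and 4-OHT together. The 8 h and 16 h libraries differ in the time spent under both serum and 4-OHT. In each comparison the effects of these on a gene cannot be told apart. Neither the promoter that drives the fusion nor whether the line is a single clone is given in the sources used here. With 1 library per time there was no replicate error and no test was possible. A change is therefore given as log2 of the ratio of (FPKM + 0.05), beside the share of genes in the same table that moved as far in the same direction, which describes these libraries and not the conditions. Such shares and counts include the gene itself. The 3 comparisons share libraries, since each library enters 2 of them.

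Cyclins are the regulatory subunits of CDKs, and successive cyclins carry a cell through the cycle. D-type cyclins bind CDK4 or CDK6 in response to mitogens and start the phosphorylation of the retinoblastoma protein RB1, which releases E2F transcription factors. E2F raises transcription of the E-type cyclins, which bind CDK2 around the restriction point and at the entry into S phase, whereas cyclin A2 with CDK2 or CDK1 acts in S and G2 phase and cyclin B1 with CDK1 drives mitosis.

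The 3 libraries were alike in scale, with FPKM sums of 566164 to 603652 and 10961 to 11140 genes at an FPKM of at least 1. Of the epithelial markers, KRT8, KRT18 and KRT19 were at 309 to 698 FPKM, whereas EPCAM and CDH1 were at or below 0.313 FPKM in every library. Of 9 markers of leukocytes, endothelial cells and fibroblasts, 8 were in the table and none reached 1 FPKM, with summed levels of 0.466 to 0.772 FPKM. RUNX3 itself was listed at 2.12, 0.712 and 2.11 FPKM at 0, 8 and 16 h, and whether reads of the fusion count toward this gene is not given in the sources used here.

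The 9 measured cyclins and CDKs spanned a wide range of levels, and CDK1 was the highest at each time. At 0 h the order was CDK1 at 220 FPKM, CCNB1 at 110, CDK4 at 96.1, CCND1 at 43.7, CDK2 at 33.6, CCNA2 at 32.8, CCND3 at 29.4, CCNE2 at 7.57 and CCNE1 at 5.93 FPKM. The E-type cyclins were the lowest of the 9 at all 3 times, and CCNE2 was above CCNE1 each time. Without replicates, the order of close neighbours such as CDK2 and CCNA2 has no error attached.

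**Figure D1:**
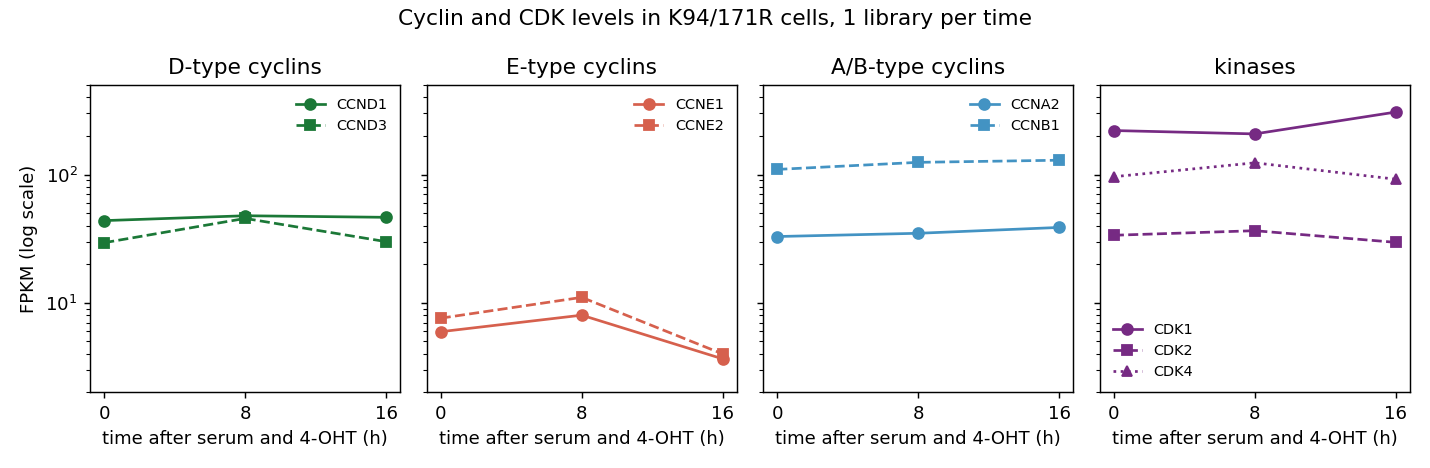
FPKM (log scale) of the 9 measured cyclins and CDKs at 0, 8 and 16 h, 1 point per library and 1 panel per class. The lines of CCNE1 and CCNE2 have their peak at 8 h and their lowest point at 16 h, CDK1 is highest at 16 h, and the lines of CCND1, CCNA2 and CCNB1 are nearly flat.

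Among the D-type cyclins, CCND1 and CCND3 were expressed and CCND2 was listed at or near 0. CCND1 (cyclin D1, ENSG00000110092, chromosome 11, 69455924 to 69469242, plus strand of hg19) was at 43.7, 47.7 and 46.3 FPKM at 0, 8 and 16 h. These 3 values lay within 1.09-fold of each other, with log2 changes of 0.13 at 8 h and 0.09 at 16 h against 0 h. CCND3 (cyclin D3, ENSG00000112576, chromosome 6, 41902672 to 42018095, minus strand) was at 29.4, 45.4 and 29.9 FPKM. Its 8 h library stood above the other two, 1.55-fold over 0 h, and 5.47% of the 11390 genes with an FPKM of at least 1 were higher by as much. CCND3 at 16 h was back at its 0 h level, with a log2 change of 0.03. CCND2 (cyclin D2, ENSG00000118971, chromosome 12, 4378937 to 4414519, plus strand) was listed at 0, 0.0137 and 0 FPKM, and no fold is given for it. The ratio of CCND1 to CCND3 was 1.49 at 0 h, 1.05 at 8 h and 1.55 at 16 h.

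The E-type cyclins had the largest changes of the 10 genes, both between 8 and 16 h. CCNE1 (cyclin E1, ENSG00000105173, chromosome 19, 30302898 to 30315219, plus strand) was at 5.93, 7.99 and 3.64 FPKM at 0, 8 and 16 h. CCNE2 (cyclin E2, ENSG00000175305, chromosome 8, 95891998 to 95908906, minus strand) was at 7.57, 11.0 and 3.98 FPKM. In both genes the 8 h library was the highest and the 16 h library the lowest.

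At 8 h against 0 h the log2 change was 0.43 for CCNE1 and 0.54 for CCNE2, both below 2-fold, and 12.4% and 8.23% of genes were higher by as much. From 8 to 16 h CCNE1 fell by 1.12 on the log2 scale, and 113 genes, or 0.992%, were lower by as much. CCNE2 fell by 1.46 on the log2 scale over the same interval, and 50 genes, or 0.439%, were lower by as much. Their 16 h levels were also below 0 h, with log2 changes of -0.70 and -0.92, short of 2-fold. With a pseudocount of 1, the change from 8 to 16 h was -0.95 for CCNE1 and -1.27 for CCNE2, so that CCNE1 no longer passed 2-fold.

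For a comparison at like levels, the E-type cyclins were also set beside the 4736 genes with a mean FPKM of 3 to 15. Of these, 56 genes, or 1.18%, were lower by 2-fold or more at 16 h against 8 h. The 2 E-type cyclins moved together at both steps, and the ratio of CCNE1 to CCNE2 stayed at 0.784, 0.726 and 0.915.

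**Figure D2:**
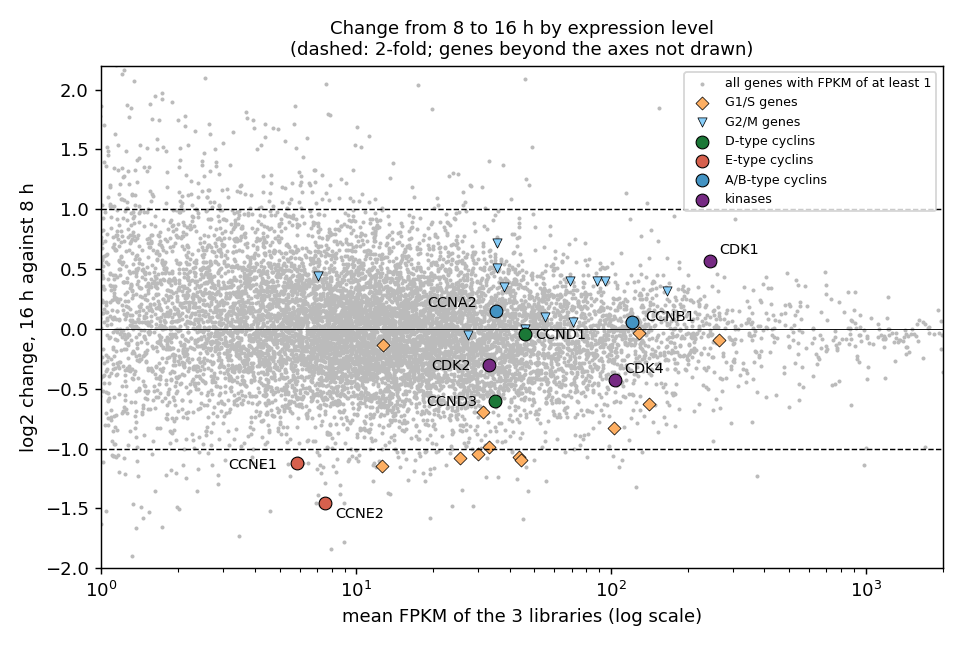
The log2 change of FPKM from 8 to 16 h against the mean FPKM of the 3 libraries (log scale), for all genes with an FPKM of at least 1 (grey), for G1/S and G2/M genes and for the cyclins and CDKs. CCNE1 and CCNE2 lie below the dashed 2-fold line at -1.12 and -1.46, beside several G1/S genes, and CDK1 lies above 0 at 0.57.

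Of the A/B-type cyclins, neither CCNA2 nor CCNB1 passed 1.5-fold in any comparison. CCNA2 (cyclin A2, ENSG00000145386, chromosome 4, 122737599 to 122745038, minus strand) was at 32.8, 34.8 and 38.6 FPKM at 0, 8 and 16 h. CCNB1 (cyclin B1, ENSG00000134057, chromosome 5, 68462962 to 68474072, plus strand) was at 110, 124 and 129 FPKM. Each was highest at 16 h, with log2 changes of 0.24 for both against 0 h, and 19.9% and 19.7% of genes were higher by as much. From 8 to 16 h the changes were 0.15 and 0.06, and 33.2% and 42.6% of genes were higher by as much. CCNB1 was at 3.34, 3.58 and 3.35 times the level of CCNA2.

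Among the kinases, CDK1 was highest at 16 h, and CDK2 and CDK4 were highest at 8 h. CDK1, the partner of cyclins A2 and B1 (ENSG00000170312, chromosome 10, 62538089 to 62554610, plus strand), was at 220, 207 and 307 FPKM at 0, 8 and 16 h. Its log2 change was -0.09 at 8 h and 0.48 at 16 h against 0 h, and 7.42% of genes were higher by as much at 16 h. From 8 to 16 h it was 1.48-fold higher, and 9.74% of genes were higher by as much.

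CDK2, the partner of cyclins E and A (ENSG00000123374, chromosome 12, 56360565 to 56366573, plus strand), was at 33.6, 36.4 and 29.6 FPKM, and its log2 change from 8 to 16 h was -0.30. CDK4, the partner of the D-type cyclins (ENSG00000135446, chromosome 12, 58141510 to 58149796, minus strand), was at 96.1, 123 and 91.9 FPKM. Like CCND3, CDK4 was highest in the 8 h library, with a log2 change of 0.36 against 0 h. Its 16 h value was near its 0 h value, with a log2 change of -0.07. The ratio of CDK1 to CDK2 was 6.56 at 0 h, 5.69 at 8 h and 10.4 at 16 h. The gene spans of 5 of the 10, CCND1, CCNE2, CCNA2, CDK2 and CDK4, overlap a protein-coding gene on the other strand, and whether counting used the strand is not given in the sources used here.

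Counted together, none of the 9 measured genes passed 2-fold at 8 h against 0 h, when 1.32% of all genes were higher and 2.66% lower by that much. Of the 9, 8 were higher by any amount, with a median log2 change of 0.18 beside 0.0048 over all genes. None passed 2-fold at 16 h against 0 h either, when 1.47% of genes were higher and 1.32% lower, and 5 genes were above and 4 below their 0 h level. From 8 to 16 h 2 of the 9, CCNE1 and CCNE2, were lower by 2-fold or more, beside 1.57% of all genes, and none was higher by that much, beside 2.78%. At that step 6 were lower and 3 higher by any amount, with a median of -0.30 beside -0.014 over all genes.

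At the smaller fold of 1.5, CCND3 was the 1 gene higher at 8 h against 0 h, beside 6.52% of all genes, and none was lower, beside 8.16%. At 16 h against 0 h CCNE1 and CCNE2 were lower by that much, beside 4.06% of genes, and none was higher, beside 5.13%. From 8 to 16 h CCND3 joined both E-type cyclins among the lower genes, beside 7.58% of genes, and none was higher, beside 9.31%.

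The cyclins were also summed by class, in the order in which the classes act. The summed FPKM of the D-type cyclins was 73.1, 93.1 and 76.3 at 0, 8 and 16 h, and that of the E-type cyclins was 13.5, 19.0 and 7.62. Both sums were highest at 8 h, 1.27-fold and 1.40-fold over 0 h, but at 16 h the D-type sum was 1.04-fold and the E-type sum 0.566-fold its 0 h level. The A/B-type sum was 142, 159 and 168 FPKM, highest at 16 h but only 1.05-fold over 8 h. The A/B-type sum was 10.5, 8.39 and 22.0 times the E-type sum, and the D-type sum was 5.41, 4.90 and 10.0 times it. Both ratios are over the E-type sum, so their higher 16 h values are not separate observations. From 8 to 16 h the E-type sum fell to 0.403-fold and the D-type sum to 0.819-fold. These sums weigh the more abundant gene of a class most, and class differences were not tested.

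RefSeq promoter windows, from 250 bases before to 50 after a gene's start, were given for 6 of the 10 genes. CCND1, CCND2, CCNE2 and CDK2 had no entry. The windows of CCNE1, which was lowest at 16 h, and of CCNA2, CCNB1 and CDK1, which were highest at 16 h, are shown so that their letters can be compared. The printed bases end at the base before the start, except for CCNB1, whose 235 printed bases end 16 bases before the RefSeq start, where an annotated exon begins. They are written 5′ to 3′ on the gene's strand, and capitals mark CCAAT boxes (CCAAT, or ATTGG on the other strand) and the cell cycle homology region letters TTTGAA. Positions are those of GRCh37, the assembly of hg19, found by exact match: chr19:30302648-30302897 on the plus strand for CCNE1, chr4:122745039-122745288 on the minus strand for CCNA2, chr5:68462727-68462961 on the plus strand for CCNB1 and chr10:62537839-62538088 on the plus strand for the first of 2 starts of CDK1.
CCNE1: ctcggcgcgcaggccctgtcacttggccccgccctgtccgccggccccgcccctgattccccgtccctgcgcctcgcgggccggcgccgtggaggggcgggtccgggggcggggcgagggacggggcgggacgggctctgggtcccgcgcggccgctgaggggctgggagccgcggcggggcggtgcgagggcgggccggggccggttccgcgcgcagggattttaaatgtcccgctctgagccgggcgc
CCNA2: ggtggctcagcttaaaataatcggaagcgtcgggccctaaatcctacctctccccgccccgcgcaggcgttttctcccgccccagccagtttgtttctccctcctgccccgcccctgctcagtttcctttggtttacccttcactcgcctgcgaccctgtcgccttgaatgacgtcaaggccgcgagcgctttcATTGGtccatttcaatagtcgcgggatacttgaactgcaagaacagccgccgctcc
CCNB1: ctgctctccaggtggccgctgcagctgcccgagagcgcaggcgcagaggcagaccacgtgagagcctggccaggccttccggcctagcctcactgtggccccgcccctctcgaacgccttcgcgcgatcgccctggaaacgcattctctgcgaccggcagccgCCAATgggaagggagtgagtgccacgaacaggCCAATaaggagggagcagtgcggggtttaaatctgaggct
CDK1: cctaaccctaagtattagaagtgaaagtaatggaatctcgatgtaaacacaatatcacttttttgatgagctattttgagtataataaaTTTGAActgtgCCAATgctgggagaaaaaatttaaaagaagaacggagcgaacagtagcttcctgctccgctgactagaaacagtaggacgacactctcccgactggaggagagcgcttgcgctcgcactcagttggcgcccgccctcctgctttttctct

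The CCNA2 window held 1 CCAAT box, 56 bases before the start, and the CCNB1 window held 2, at 87 and 55 bases before it. The first CDK1 window held TTTGAA 161 and CCAAT 150 bases before the start, and the E2F letters TTTCGCGC 19 bases after it, beyond the printed bases. The second CDK1 window held cell cycle homology region letters 69 and 13 bases before its own start and 9 bases after it. It also held CCAAT boxes 78 and 46 bases before that start and TTTCGCGC 128 bases before it. All of these lie beyond the printed bases. The CCNE1 and CDK4 windows held none of the letters searched, and 2 of the 3 CCND3 windows held a CCAAT box.

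The 6 genes had 9 windows, 3 of CCND3 and 2 of CDK1 that overlap each other. CCAAT boxes were in 6 of the 9 windows, from 4 genes, beside 34.6% of 35116 windows of the same 300 bases over all genes. The cell cycle homology region (TTTGAA or TTCGAA) was in 2 of the 9, both of CDK1, beside 16.4%, and the E2F letters (TTTCCCGC, TTTGGCGC, TTTCGCGC or TTTGCCGC) in the same 2 beside 3.31%. The E2F match is the same stretch of bases in both CDK1 windows, which overlap there. It is therefore a single observation, and its count cannot be read against that share. The RUNX letters ACCGCA and ACCACA, found in 19.6% of windows, were in none of the 9. Both strands were searched, and a match describes letters, not a site in use. Only these exact letters were sought, so a window without a match may still hold a variant of a site.

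The cyclins and CDKs were then set beside 66 other cell cycle genes in 12 roles, of which 61 passed the minimum of 1 FPKM. At 8 h against 0 h 1 of the 61 was higher and 2 were lower by 2-fold or more, beside 1.32% and 2.66% of all genes. At 16 h against 0 h none was, beside 1.47% higher and 1.32% lower of all genes. From 8 to 16 h 1 of the 61 was higher and 7 were lower, beside 2.78% and 1.57% of all genes. Of these 7, 5 were G1/S genes, and the others were CDC25A and CDK3.

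The E2F factors act upstream of the E-type cyclins. Some of them and of their partners were highest at 8 h and lowest at 16 h, as CCNE1 and CCNE2 were, and others were not. For some with this order, the log2 change at 16 h against 0 h was only -0.07. That is small enough to depend on the scaling of the libraries. How common this order was over all genes was not computed. E2F1, an activating E2F, was at 19.0, 28.1 and 14.4 FPKM at 0, 8 and 16 h, with log2 changes of 0.57 at 8 h against 0 h and -0.96 from 8 to 16 h. Of 10 E2F and partner genes, 9 were higher at 8 h than at 0 h by any amount, with a median of 0.35 beside 0.0048 over all genes. From 8 to 16 h 8 were lower, with a median of -0.45 beside -0.014 over all genes. At 16 h against 0 h 3 were higher and 7 lower, with a median of -0.09 that was nearer to 0 than the changes of CCNE1 and CCNE2. None of the 10 passed 2-fold in any comparison. The exception at 8 h was TFDP2, an E2F partner, at 14.0, 8.48 and 13.1 FPKM. Of the pocket proteins that bind E2F, RBL2 was at 16.6, 11.5 and 18.0 FPKM, with its lowest value at 8 h, and RBL1 was at 8.30, 10.3 and 7.68 FPKM, with its highest there.

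The G1/S genes, which serve DNA replication and are known E2F targets in large part, were mostly highest at 8 h, as the E-type cyclins were. Of 12, 10 were higher by any amount at 8 h against 0 h, with a median log2 change of 0.44 beside 0.0048 over all genes. All 12 were lower at 16 h than at 8 h, with a median of -0.91 beside -0.014 over all genes. The changes ran from -1.15 to -0.03. MCM2, MCM4, MCM5, MCM6 and CDC6 passed 2-fold, beside 1.57% of all genes. CDC6, which loads the replicative helicase, was at 11.6, 18.0 and 8.12 FPKM, and MCM2, a helicase subunit, was at 25.1, 35.1 and 16.6 FPKM. MCM6, another subunit, was at 42.9, 61.7 and 28.8 FPKM. The 2 that were not higher at 8 h were PCNA and TYMS.

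The G2/M genes, which serve mitosis, were mostly highest at 16 h, as CDK1 was. Of 12, all were higher by any amount at 16 h than at 0 h, with a median of 0.20 beside -0.011 over all genes. The smallest of these changes was 0.04. From 8 to 16 h 11 were higher, with a median of 0.37 beside -0.014 over all genes. None passed 2-fold in any comparison. AURKA, a mitotic kinase, was at 76.1, 89.7 and 118 FPKM, and CENPF, a kinetochore protein, was at 33.4, 28.0 and 46.0 FPKM. Of the other cyclins, CCNB2 was at 63.0, 45.9 and 66.1 FPKM and CCNF at 12.2, 10.5 and 14.8 FPKM, both lowest at 8 h. CCNA1 and CCNB3 stayed below 1 FPKM.

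Among the proteins that switch CDKs on, CDC25A, a phosphatase that activates CDK2, was at 6.62, 15.1 and 7.24 FPKM. It rose by 1.19 on the log2 scale at 8 h and fell by 1.06 from 8 to 16 h, which became -0.97 with a pseudocount of 1. CDC25C, which acts on CDK1, had the opposite order at 10.6, 5.51 and 10.0 FPKM, with a change of -0.94 at 8 h that was short of 2-fold. The CDK-activating kinase subunit MNAT1 was at 21.4, 24.5 and 30.3 FPKM and its partner CCNH at 36.8, 44.1 and 44.6 FPKM. CKS2, a small subunit of CDK complexes, was at 309, 344 and 431 FPKM and thus highest at 16 h, as was CDK1, whereas CKS1B was at 192, 169 and 185 FPKM. CDK3, a less abundant relative of CDK2, was at 3.14, 3.87 and 1.63 FPKM and fell by 1.22 from 8 to 16 h, which became -0.89 with a pseudocount of 1. CDK6, the other partner of D-type cyclins, was at 9.39, 9.00 and 9.43 FPKM.

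Among the proteins that hold CDKs back, CDKN1A (p21), which binds cyclin-CDK complexes, had the largest change of the 61 genes. It was at 146, 68.5 and 247 FPKM at 0, 8 and 16 h, a fall by 1.09 at 8 h and a log2 change of 1.85 from 8 to 16 h. CDKN2D, an inhibitor of CDK4 and CDK6, was at 6.50, 2.49 and 4.86 FPKM and fell by 1.37 at 8 h. All 4 inhibitors that passed the minimum FPKM were lower at 8 h than at 0 h and higher at 16 h than at 8 h by any amount, the reverse of both steps in CCNE1 and CCNE2. Their medians were -0.77 and 0.77, beside 0.0048 and -0.014 over all genes, and the smallest rise from 8 to 16 h was 0.03. Both steps share the 8 h library, so the fall and the rise are not separate observations. No share of all genes with this order is set beside the count. CDKN1C reached 0.127 FPKM at most, and CDKN2A and CDKN2B were listed at 0 in all 3 libraries. Of the kinases that inhibit CDK1, PKMYT1 was at 19.1, 28.7 and 27.8 FPKM and WEE1 at 14.9, 12.7 and 15.1 FPKM. Of the ubiquitin ligase parts, none of the 6 passed 2-fold. CDC20, an activator of the anaphase-promoting complex, was at 66.2, 92.0 and 72.2 FPKM, and FBXO5, an inhibitor of that complex, was at 13.8, 18.3 and 14.1 FPKM.

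**Figure D3:**
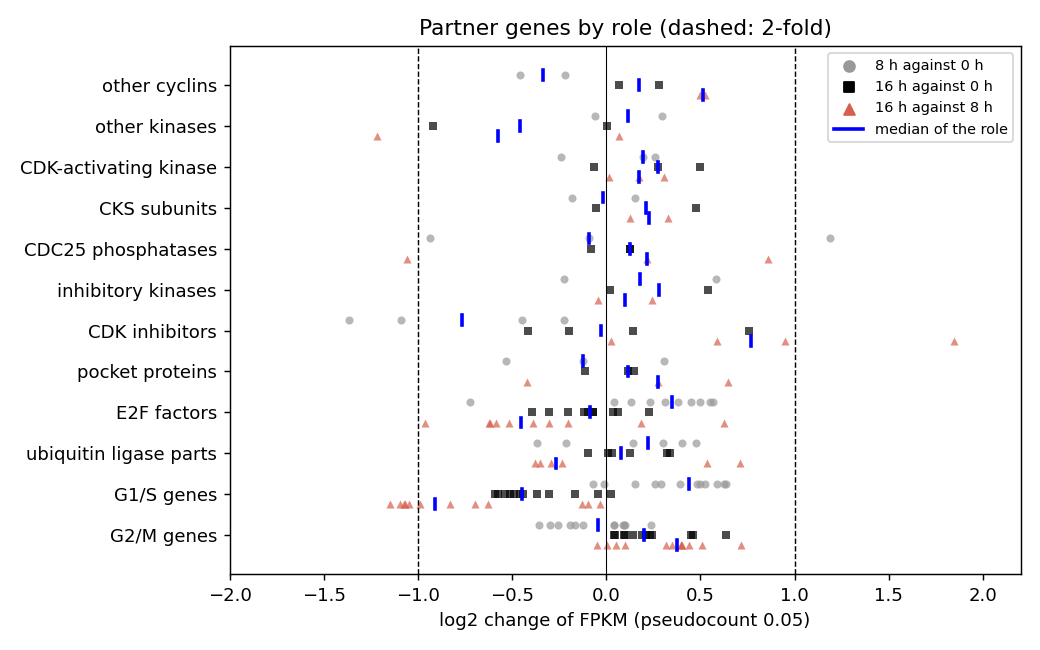
The log2 change of FPKM of the 61 measured partner genes by role, for 8 h against 0 h, 16 h against 0 h and 16 h against 8 h, with the median of each role as a blue bar and dashed lines at 2-fold. The G1/S and E2F medians lie right of 0 at 8 h (0.44 and 0.35) and left of 0 from 8 to 16 h (-0.91 and -0.45), and the medians of the CDK inhibitors lie the other way (-0.77 and 0.77).

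The genes most like CCNE2 over the 3 libraries were HPDL, UNG, PIGW, FAM111B and CHCHD4, measured by the larger of the differences in the 2 log2 changes against 0 h, among 6825 other genes that reached 10 FPKM. UNG, a uracil-DNA glycosylase, was at 27.2, 36.7 and 14.4 FPKM, and FAM111B at 7.95, 10.4 and 4.25 FPKM. Within 0.1 of CCNE2 lay 1 of the 6825 genes and within 0.2 lay 4, and CCNE1, which did not reach 10 FPKM, lay at 0.22. For CCND1 the most like were NRBF2, TRPM7, MET, PEMT and MAD2L2, with 509 genes within 0.1 and 1782 within 0.2. For CCNB1 they were LPGAT1, TUBGCP2, ORC3, HDHD2 and BNIP3, with 269 genes within 0.1 and 1066 within 0.2. The patterns of CCND1 and CCNB1 were thus shared by many genes that changed little, and a likeness over 3 libraries says nothing of function.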

How the data were processed

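Poly(A) libraries of total RNA were made with a stranded kit. Per the submitters' processing notes and the study's methods, adapters were removed with Cutadapt, STAR 2.5.0 aligned the reads to hg19, and the Cufflinks package with Cuffdiff 2.2.1 was used. The authors deposited gene-level FPKM, 1 column per library. The gene annotation and the strand setting are not given in the sources used here. The table holds 19869 Ensembl identifiers, 19494 of which matched a symbol. Coordinates are those of GENCODE release 44 placed on GRCh37, and promoters are from a RefSeq table of GRCh38.p14.

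FPKM carries no read number, so depth is unknown and no interval on a value could be computed. From the steps of low values, the relative depth was put at 1 at 8 h (19 of 1297 low genes) and 0.986 at 16 h (24 of 1240), with 0 h as 1. This rests on a small part of the low genes and is a rough estimate. Changes were log2((FPKM + 0.05)/(FPKM + 0.05)) over the 11390 genes with an FPKM of at least 1 in at least 1 library, and a gene was counted when past 2-fold. The scripts (Python 3.11.15, numpy 2.4.6, pandas 2.3.3) were tested on simulated data. The genes named were all members, RUNX3, in each role the genes past 2-fold or otherwise the 2 with the largest change against 0 h, and the 5 most like CCND1, CCNE2 and CCNB1. Outside this rule, CDC25C, CDK6, PCNA, TYMS, the genes under the minimum FPKM (CDKN1C, CDKN2A, CDKN2B, CCNA1 and CCNB3) and the range of 3 to 15 FPKM were added after values were seen. The members and lists were chosen with earlier results of these data known. Alternatives were a pseudocount of 1, 2 scalings, no filter or a minimum of 10 FPKM, and a fold of 1.5. A planned search of protein motifs was not run, since no protein sequences were used here.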

Additional observations from a re-analysis of the deposited data

How the results depend on the processing

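No paired analysis was possible because there was 1 library per condition, and no replicate could be left out. With a pseudocount of 1, the count of cyclins and CDKs past 2-fold lower at 16 h against 8 h was 1, since CCNE1 moved to -0.95, and that of the other cell cycle genes went from 7 to 5, without CDC25A and CDK3. With a minimum of 10 FPKM that count was also 1, because CCNE1 was not among the 6826 genes left, and 1 of the other cell cycle genes was lower at 8 h. With a fold of 1.5, 1 cyclin (CCND3) was higher at 8 h and 2 (CCNE1 and CCNE2) were lower at 16 h against 0 h. At that fold, 4 of the other cell cycle genes were higher and 4 lower at 8 h, 2 higher and 2 lower at 16 h, and 8 higher and 15 lower at 16 h against 8 h. With no filter, 1 of them was higher and 1 lower at 16 h against 0 h, and 2 were higher at 16 h against 8 h. With libraries set to the same FPKM sum, 2 were higher at 16 h against 8 h (CDKN2D reached 1.01) and 6 lower (MCM5 moved to -0.99), and 2 small changes took the other sign, CDK4 at 16 h against 0 h (0.03) and CCND1 at 16 h against 8 h (0.01). Setting the median ratio to 0 h to 1 moved none of the counts by over 1.5 times. Of 90 recomputed changes of the 10 genes, 6 moved by over 0.1, all with the pseudocount of 1. FPKM limits all of this, since the read numbers behind CCNE1 and CCNE2 are unknown.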
